A study of Mus musculus with 18 samples.

Results

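The polysome fraction of adult mouse testes was compared with the polysome fraction of testes from 22-day-old mice, on 3 microarrays of each age. These 6 arrays belong to a series of 18, and the comparison, adult minus 22-day, took in all 22626 probe sets that are not array controls. Of these, 14066 passed a filter on low signal (above 51.6, the median of all values, on at least 3 of the 18 arrays) and were tested. The series asked which transcripts change their distribution between ribonucleoprotein particles (RNPs) and polysomes as the testis matures. All animals were CD1 mice, with no treatment, transgene or mutation named in the labels, and each array is labelled as a biological replicate. Cytoplasmic extracts of whole testes were centrifuged through a 10 to 30% sucrose gradient of 17 fractions, and the RNA of fractions 11 to 17 was pooled as the polysome sample. The RNP arrays of the same 2 ages (fractions 2 to 8, 3 arrays each) and the 3 polysome arrays of 17-day testes are shown here to set values beside the polysome change, and all 18 arrays entered the fit that estimates the spread. The adults' age in days, and whether a replicate was 1 animal or several, remain unstated in the sources used.

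An mRNA that carries several ribosomes sediments with the polysomes and is taken as being translated, whereas a stored mRNA sediments with the lighter RNPs. Many mRNAs of haploid male germ cells, the protamines and transition proteins above all, are transcribed in round spermatids, held in RNPs for days and loaded onto ribosomes only in elongating spermatids. In the first wave of mouse spermatogenesis the round spermatids appear before the elongating ones, and the steroid-producing Leydig cells complete their adult differentiation over the same weeks.

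The 6 arrays had been scaled by the authors to the same trimmed mean signal (150 to 150.1), so each value is relative to the rest of its own array. Adult replicate 1 stood apart: its log2 signals correlated with the other adult polysome arrays at 0.859 and 0.887, against 0.94 between those 2 and 0.928 to 0.962 among the 22-day arrays. Its mean signal of the spiked-in poly-A controls was 281, against 131 and 82.3 on the other adult arrays and 65.6 to 211 on the 22-day arrays, and the part of this in the results was not tested. The 3′ to 5′ signal ratio of the Actb control probe sets, a sign of RNA quality, was 1.31 to 1.83 at 22 days and 1.38 to 1.4 in adults, and that of Gapdh was 1.01 to 1.71 and 1.09 to 1.42. Results are given with all 6 arrays. The overall counts of the polysome change are also given without adult replicate 1. Since whole testes were extracted, fewer cells of a type and less RNA per cell cannot be told apart, and neither can more cells and more RNA.

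From 22 days to adult more probe sets rose than fell on polysomes, and the decreases were smaller. Most tested genes of the chromatin condensation and sperm tail lists were among those that rose. A probe set was called when the adjusted p of limma's moderated test was below 0.05. By that rule 684 probe sets were higher on adult polysomes (4.86% of those tested) and 330 were lower (2.35%), in all 1014 (7.21%), while the median log2 difference of all tested probe sets was -0.11. The 684 name 569 genes and the 330 name 266 genes, counting probe sets with 1 gene symbol. The increases were the larger changes: 578 of the 684 were at least 2-fold, 227 at least 4-fold and 92 at least 8-fold, against 205, 1 and 0 of the 330 that were lower. The 3 adult arrays lay above all 3 22-day arrays for 678 of the 684 probe sets called higher and below them for 316 of the 330 called lower, where 10.3% and 14.8% of all tested probe sets showed these orders. For 127 of the 684, every 22-day array was below the filter value of 51.6 and every adult array above it. Their 3 adult arrays are enough to pass the filter, so this count is only a description. Without adult replicate 1 the calls were 587 higher and 175 lower, with 531 of the 684 and 114 of the 330 among them. With only the 6 compared arrays in the fit they were 502 and 84, with 491 of the 684 and 76 of the 330 among them.

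The 22-day arrays were themselves unequal for the genes that rose. Replicate 2 held the lowest 22-day value for 476 of the 684 probe sets (69.6%) and replicate 1 the highest for 382 (55.8%), whereas over all tested probe sets replicate 2 was lowest in 30.5%. Without 22-day replicate 2 the counts were 460 higher and 57 lower, with 454 of the 684 and 57 of the 330 among them. Without 22-day replicate 1 they were 571 and 136.

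**Figure D1:**
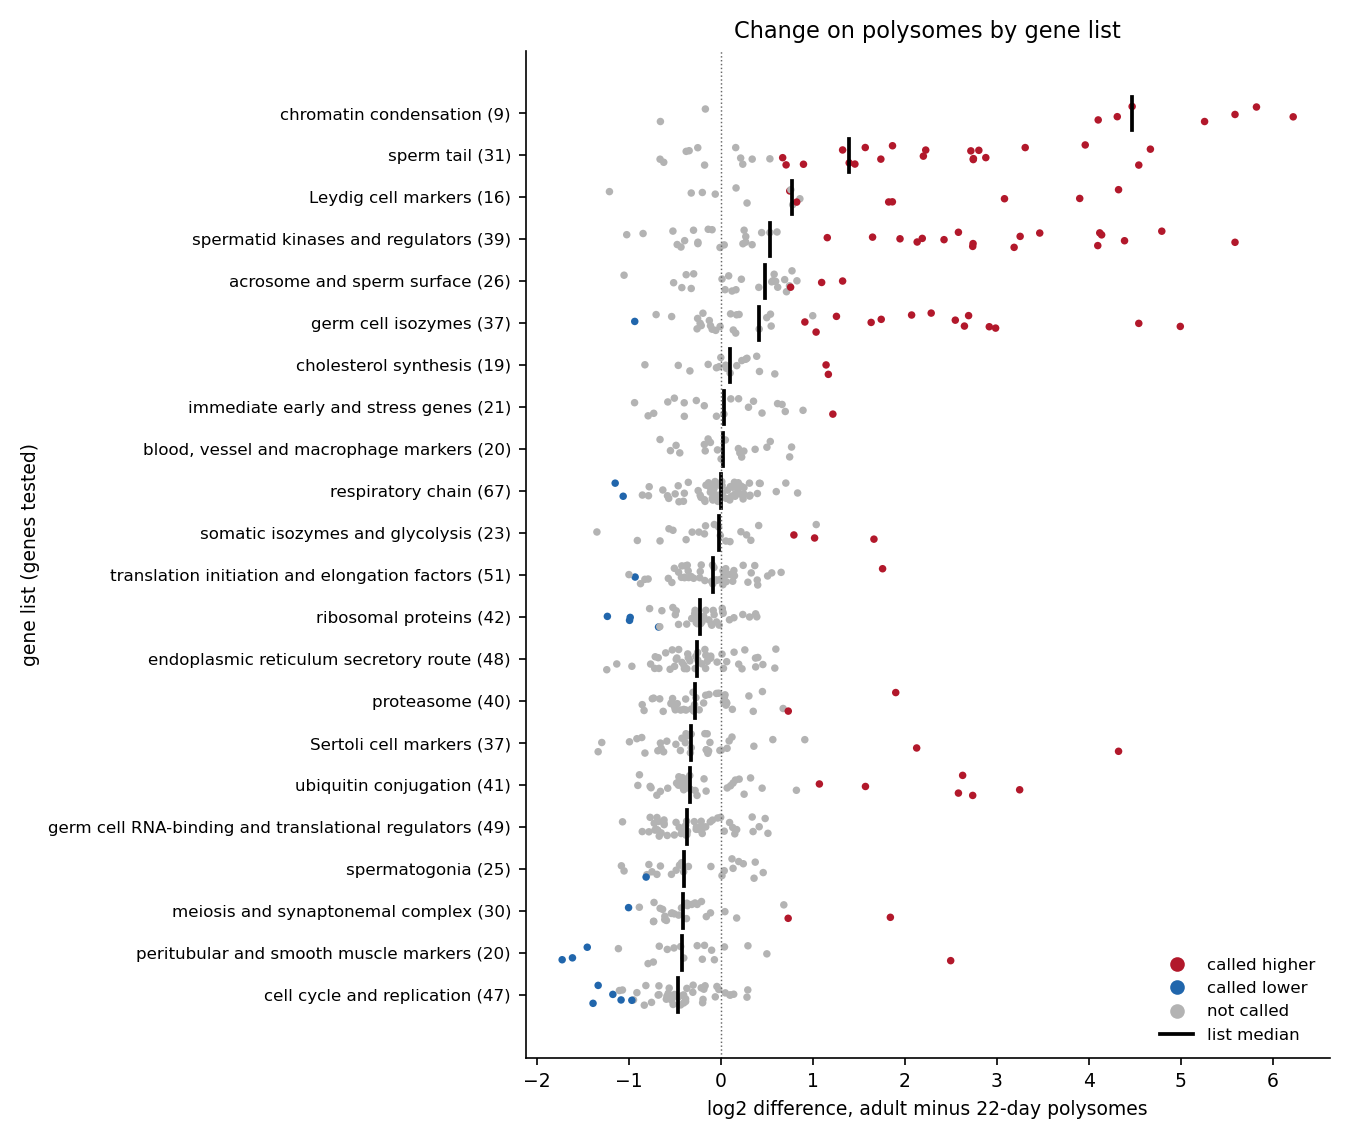
Log2 difference, adult minus 22-day polysomes (x axis), of each tested gene of 22 gene lists (y axis, number of genes tested in parentheses), with 1 probe set per gene. Points are genes, red called higher, blue called lower and grey not called, and black bars are list medians: chromatin condensation and sperm tail genes stand at the right, and cell cycle genes have the lowest median.

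By list median, the mRNAs of chromatin condensation genes rose most. Of the 9 tested genes for chromatin condensation, 7 were called higher and 0 lower (1 lower at an unadjusted p below 0.05), and the median of the 9 was 4.47 on the log2 scale, where 1 unit is a doubling of signal plus a pseudocount of 15.4. That scale understates the change of genes with low signal. By 1 probe set per gene, 5.78% of 8713 tested genes were called higher and 1.85% lower. After each list's count of 0 below, the count at an unadjusted p below 0.05 stands in parentheses. The 7 were the protamines Prm1, Prm2 and Prm3, the transition proteins Tnp1 and Tnp2, the linker histone-like Hils1 and the HMG-box protein Hmgb4. The 4 genes Tnp2, Prm3, Prm2 and Prm1 are consecutive genes of chromosome 16 and are transcribed from the same strand, and all 4 rose, so the 150 bases before each of their starts are shown (RefSeq, GRCm38.p6). Capitals mark matches, on either strand, to 6 motifs. They are the cAMP response element TGACGTCA, its shorter core site TGACG (which every match of the longer one also holds), the TATA element spelled TATAAA, the binding letters of factor NF-Y spelled CCAAT, the core site of RFX factors spelled GTTGCC and the MYB factor site spelled CAACTG.
Prm1 (chr16:10796824-10796973, - strand): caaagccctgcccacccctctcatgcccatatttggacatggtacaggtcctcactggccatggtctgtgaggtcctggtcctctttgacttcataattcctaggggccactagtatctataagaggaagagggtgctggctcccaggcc
Prm2 (chr16:10792106-10792255, - strand): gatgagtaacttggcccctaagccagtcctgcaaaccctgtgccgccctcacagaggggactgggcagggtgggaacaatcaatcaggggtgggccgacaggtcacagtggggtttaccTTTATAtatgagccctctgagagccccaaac
Prm3 (chr16:10790915-10791064, - strand): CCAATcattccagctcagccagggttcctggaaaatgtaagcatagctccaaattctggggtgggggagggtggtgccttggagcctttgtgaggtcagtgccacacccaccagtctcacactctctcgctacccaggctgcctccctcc
Tnp2 (chr16:10788656-10788805, - strand): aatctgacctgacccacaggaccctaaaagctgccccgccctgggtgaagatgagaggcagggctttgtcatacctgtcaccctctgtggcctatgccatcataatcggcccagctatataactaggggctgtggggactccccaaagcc
The window of Prm2 holds TATAAA on the opposite strand and that of Prm3 holds CCAAT. No listed motif stands in the Prm1 and Tnp2 windows, which says only that these letters are not in these bases. In windows of this length TATAAA stood before 8.89% and CCAAT before 27.7% of the 27025 genes of the promoter table.

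Prm2, which binds DNA in the condensed sperm head, had signals of 298.2, 22.9 and 99.5 on the 22-day polysome arrays (replicates 1 to 3) and 8421.8, 9425.5 and 7151.9 on the adult ones. The adult arrays were alike and far above the 22-day arrays, which differed widely among themselves. The log2 difference was 6.22 ± 0.79 (SE, adjusted p = 2.96e-05), a 74.5-fold change and the largest increase of any tested probe set. Prm1, its partner protamine, went from 431.9, 36.6 and 138.6 to 9218.3, 10117.1 and 6892.9, with the same order of replicates at 22 days and a log2 difference of 5.82 ± 0.80 (adjusted p = 7.72e-05). Its probe set is of a type that can share bases with other transcripts, as is that of Tnp2.

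Transition protein 1 (Tnp1), which is laid down between histones and protamines, had 22-day signals of 266.1, 8.5 and 47.4 and adult signals of 3988.3, 3643.6 and 3190.4. The groups did not overlap, and the change was 5.59 ± 0.78 (adjusted p = 8.71e-05). For Tnp2 the 22-day signals were 264.3, 15.9 and 76.7 and the adult signals 3393.7, 3174.4 and 4129.2, a difference of 5.26 ± 0.87 (adjusted p = 5.10e-04). In each of these 4 genes 22-day replicate 1 was highest and replicate 2 lowest. Prm3, whose product is a small acidic protein of the spermatid cytoplasm, changed by 4.31 ± 0.36, Hils1 by 4.10 ± 0.47 and Hmgb4 by 4.47 ± 0.63. All 7 calls held without adult replicate 1 and without 22-day replicate 2. A further histone gene outside the list, H2al2a, which encodes a short histone of condensing spermatids, rose from 57.7, 1.8 and 24.4 to 1053.7, 1354.2 and 1581.4 (5.17 ± 0.56, adjusted p = 5.58e-06).

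**Figure D2:**
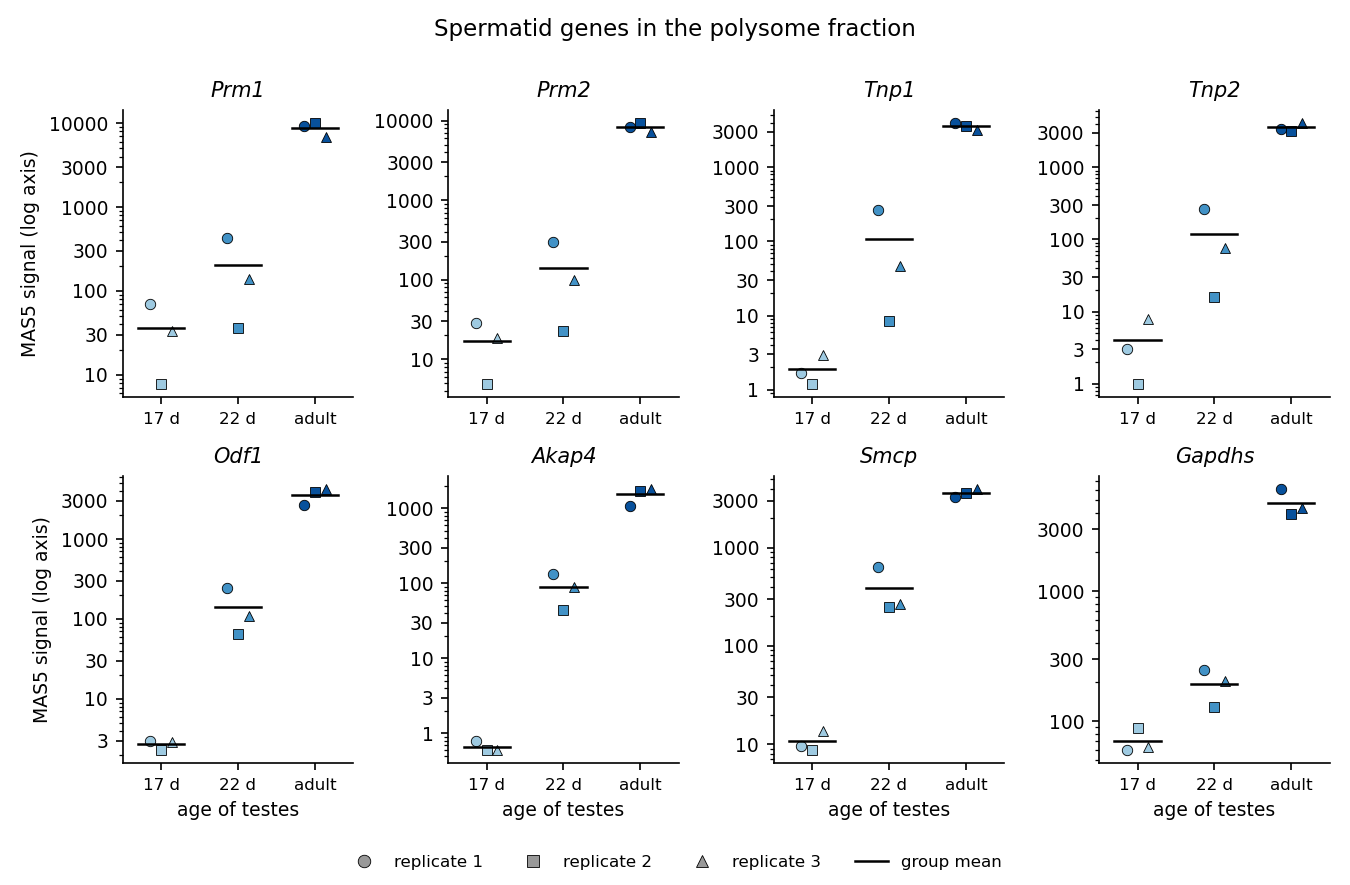
MAS5 signal (y axis, log scale) of 8 spermatid genes on the polysome arrays of 17-day, 22-day and adult testes (x axis), with 1 marker per array, the marker shape giving the replicate, and a bar at the group mean. The adult arrays lie above all 22-day arrays for each gene, and among the 22-day arrays replicate 1 is highest and replicate 2 lowest.

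The flagellum was the other large group. Of 31 tested genes of the sperm tail, 20 were called higher and 0 lower (1), with a median of 1.40. They included the outer dense fibre genes Odf1, Odf2 and Odf3, the fibrous sheath anchors Akap3 and Akap4, the rhophilin-binding Ropn1 and Ropn1l, the axonemal Tekt2 and Rsph9, the sperm calcium channel gene Catsper1 and the annulus gene Septin4. Odf1, a main protein of the outer dense fibres, rose from 245.6, 65.6 and 110.3 to 2641.6, 3852.3 and 4234.5, a difference of 4.67 ± 0.42 (adjusted p = 7.10e-07). Akap4, the main fibrous sheath protein, rose from 131.9, 44.6 and 88.2 to 1072.8, 1715.7 and 1817.7 (3.96 ± 0.37, adjusted p = 1.16e-06). In both genes the lowest adult array was far above the highest 22-day array, and adult replicate 1 was the lowest adult array.

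Smcp, a protein of the mitochondrial capsule of the midpiece, rose from 639.2, 247 and 267.7 to 3253.5, 3610 and 3973 (3.31 ± 0.33, adjusted p = 2.13e-06). Its 17-day values had been 9.6, 8.7 and 13.6. Other members changed less: Odf2 by 1.74 ± 0.30, Tekt2 by 1.40 ± 0.30 and Tcp11 by 1.32 ± 0.22. The calls of Ropn1l, Cabyr, Rsph9 and Septin4 were lost without 22-day replicate 2, and the list then held 16 calls. Those of Cabyr and Septin4 were also lost without adult replicate 3, and that of Rsph9 without 22-day replicate 1 or adult replicate 1 (highest adjusted p = 0.0579, 0.135, 0.153 and 0.111 for Ropn1l, Cabyr, Rsph9 and Septin4). Without adult replicate 1 it held 19.

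Kinases and regulators of spermatid shaping rose with the structural genes, in 18 of 39 tested, with 0 lower (3) and a median of 0.53. All 4 tested testis-specific serine kinases of the list were among them: Tssk6 with a difference of 4.79 ± 0.49, Tssk3 with 4.39 ± 0.38, Tssk2 with 3.25 ± 0.34 and Tssk1 with 1.65 ± 0.31. Tssk6, a kinase required for the condensation of spermatid chromatin, had 22-day signals of 95.8, 23.6 and 57.9 and adult signals of 2410.8, 1624 and 1683.8 (adjusted p = 3.09e-06). Tsks, which encodes a substrate of these kinases, changed by 2.19 ± 0.28. The actin-related genes of the spermatid head Actl7a, Actl7b, Actrt1 and Actrt2 changed by 2.74, 1.16, 2.13 and 3.19, and the capping protein gene Capza3 by 3.47 ± 0.42. Fhl5, which encodes the CREM coactivator ACT, rose from 121.9, 27.5 and 77.6 to 906.5, 2336 and 1365.6 (4.14 ± 0.47, adjusted p = 9.77e-06). The call of Actl7b was lost without 22-day replicate 2, adult replicate 1 or adult replicate 3, with a highest adjusted p of 0.155. Tnp1 stands on the kinase and regulator list too, as its largest change, and so counts both there and in chromatin condensation. Without adult replicate 1 the kinase and regulator list held 17 higher calls.

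Genes of the acrosome, the secretory vesicle over the sperm nucleus that round spermatids begin to build, were called less often than tail genes. Of 26 tested, 3 were called higher and 0 lower (1), with a median of 0.48, above that of all tested probe sets. The share called higher was 11.5%, against 64.5% of the tail list and 5.78% of all tested genes. The count of higher calls was 4 without adult replicate 1, 1 without 22-day replicate 2, and 6 when adult replicate 1 and 17-day replicate 2 were left out in both fractions. Proacrosin (Acr), the main acrosomal protease, was at 593.8, 625.6 and 462.6 at 22 days and 632.8, 585.7 and 604.3 in adults, so that the groups overlapped (log2 difference 0.12 ± 0.27, adjusted p = 0.822). The value of Acr had been 169.4, 268.3 and 190.1 at 17 days. Crisp2, an acrosomal and tail protein, was at 591.3, 548.8 and 329.6 at 22 days and 310.3, 1530.1 and 1095.3 in adults, and adult replicate 1 was below all 22-day arrays (adjusted p = 0.328). Under the last of these settings (4 arrays left out) Crisp2 passed with an adjusted p of 0.0031. The 3 called genes were Tcp11 (counted with the sperm tail too), Prss39 (1.10 ± 0.31) and Fabp9 (0.76 ± 0.22). The call of Prss39 was lost without any array but adult replicate 2 (highest adjusted p = 0.119). That of Fabp9 was lost without 22-day replicate 1 or 2 or adult replicate 2 or 3 (highest adjusted p = 0.200).

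Germ cells replace several housekeeping enzymes by isozymes of their own. Of 37 tested germ cell isozymes and chaperones, 14 were called higher and 1 lower, with a median of 0.42. Gapdhs, the glyceraldehyde-3-phosphate dehydrogenase bound to the fibrous sheath, rose from 246.8, 128.8 and 204.5 to 6125.4, 3909.7 and 4346.2 (4.54 ± 0.36, adjusted p = 1.94e-07). It counts in the sperm tail list too. Hspa1l, the HSP70 family member of spermatids, rose from 63.3, 1 and 28.1 to 1190.8, 1370 and 1069.6 (4.99 ± 0.54, adjusted p = 5.75e-06). In neither gene did the ages overlap. Pgk2, the autosomal phosphoglycerate kinase of germ cells, rose from 242.5, 141.8 and 162.7 to 648.8, 1577.8 and 1352.3 (2.55 ± 0.33, adjusted p = 4.12e-05), and adult replicate 1 was the lowest adult array by far. The glycolytic members Aldoart1 and Aldoart2, which are close copies of aldolase A, changed by 2.65 and 2.69, the mitochondrial glycerol-3-phosphate dehydrogenase Gpd2 by 2.92, hexokinase 1 (Hk1) by 1.74 and Pgam2 by 1.04 (adjusted p = 0.0585 with only the compared arrays). Among the J-domain chaperones, Dnajb8, Dnajc5b, Dnajb7 and Dnajb3 changed by 2.99, 2.29, 2.07 and 1.26. The calls of Dnajb7, Dnajb3 and Ace were lost without 22-day replicate 2 (highest adjusted p = 0.159, 0.0540 and 0.156), that of Dnajb7 also without adult replicate 2 or 3 and that of Ace without adult replicate 1 or 3. The list held 13 higher calls without adult replicate 1 and 11 without 22-day replicate 2. The gene that fell was Tubb3, a neuronal beta tubulin with a place on this list, at 155.7, 157.5 and 135.8 and then 74.4, 65.8 and 72.7 (-0.93 ± 0.20).

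Panel genes Ldhc, Cyct and Hspa2 did not pass the test. Ldhc, the lactate dehydrogenase of germ cells, was at 7321.3, 7461 and 8427.2 at 22 days and 8682.1, 9587 and 7777 in adults (log2 difference 0.16 ± 0.11, adjusted p = 0.393), and its sign turned to -0.07 under quantile normalization. These signals were close to the highest of each array (7384, 7869 and 8684 at 22 days, 9682, 10120 and 7933 in adults). Whether a limit on high signals hid a change of Ldhc was not tested. The testis cytochrome c gene Cyct was at 694.1, 611 and 886.3 and 402, 796.3 and 687.5 (adjusted p = 0.618). The chaperone Hspa2, which spermatocytes need to leave meiotic prophase, was at 2179.2, 1970.5 and 3392.8 and 1892.5, 2069.2 and 2954.3 (adjusted p = 0.861). In all 3 genes the groups overlapped.

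Of 23 tested somatic isozymes and glycolytic enzymes, 3 were called higher and 0 lower (3), with a median of -0.02. Triose-phosphate isomerase (Tpi1) rose from 365.7, 312.8 and 470.1 to 1757.9, 901 and 1176.7 (1.67 ± 0.23, adjusted p = 9.76e-05). Aldoa (1.02 ± 0.27) and Aldoc (0.80 ± 0.20) passed with all arrays. Both lost the call without 22-day replicate 1, adult replicate 1 or adult replicate 3, Aldoa also without 22-day replicate 2 and Aldoc without 22-day replicate 3 (highest adjusted p = 0.116 and 0.0771). Another Aldoa probe set was called, at 0.86, and those at 0.83 and 0.91 were not. All Aldoa probe sets are of the type that can share bases with other transcripts. Without adult replicate 1 the list held 1 higher and 1 lower call. Other somatic enzymes of the panel did not pass: Pgk1 changed by -0.56 ± 0.28 (adjusted p = 0.236), Ldha by 0.41 ± 0.21 (0.252), Ldhb by -0.38 ± 0.34 (0.541) and cytochrome c (Cycs) by -0.18 ± 0.26 (0.720).

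A few genes of protein turnover rose. Of 41 tested genes of ubiquitin conjugation, 6 were called higher and 0 lower (5), although the list's median was -0.34. The 6 were Rnf151, a RING finger protein of the testis, with signals of 177.2, 91.3 and 141.8 at 22 days and 1824.2, 1154.1 and 1272.4 in adults (3.25 ± 0.41, adjusted p = 2.94e-05), Klhl10, the CUL3 adaptor required for male fertility (2.74 ± 0.41), the RING finger gene Rnf138 (2.63 ± 0.35), the ER-bound conjugating enzyme Ube2j1 (2.58 ± 0.23), Rnf4 (1.57 ± 0.27) and Ube2k (1.07 ± 0.18). The other 2 probe sets of Rnf138 were not called, at -0.01 and -0.84. Of 40 proteasome genes 2 rose and 0 fell (6), and the share that rose, 5%, was near the 5.78% of all tested genes. The 2 were the activator gene Psme3, from 211.1, 151.8 and 227.3 to 836.3, 898.4 and 601 (1.90 ± 0.25, adjusted p = 3.74e-05), and Psmd8 (0.73 ± 0.21). A separate Psme3 probe set was not called, at -0.54. The call of Psmd8 was lost without 22-day replicate 1 or 2 or adult replicate 1 (highest adjusted p = 0.214), which left 1 call in the list.

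Few genes of the translation machinery passed. Of 51 initiation and elongation factors, 1 rose and 1 fell, with a median of -0.09. Eef1d, a subunit of the exchange factor for elongation factor 1A, rose from 476.3, 450.5 and 654.1 to 1997.2, 1573.7 and 1844.1 (1.76 ± 0.20, adjusted p = 1.16e-05). The release factor gene Etf1 fell by 0.93 (adjusted p = 0.0375), a call lost without 22-day replicate 1 or 2 or adult replicate 1 (highest adjusted p = 0.158), and the 3 other probe sets of Etf1 were not called, at 0.01 to 0.61. Of 49 germ cell RNA-binding and translational regulators, limma called 0 either way (1 higher and 13 lower at an unadjusted p below 0.05). Ybx2, which packages stored mRNAs in male germ cells, was at 2002.1, 2229.1 and 4392.1 at 22 days and 3831.8, 2618 and 4001.2 in adults, and the groups overlapped. Those of Ddx4, the germ cell RNA helicase, overlapped too, at 828.3, 722.6 and 909.4 and 404.6, 1058.9 and 812.1.

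The largest increases outside these lists included 2 spermatid genes and a gene without a common name. Oxct2a, a ketone body transferase of the testis, had 22-day signals of 68.2, 18.2 and 49.4 and adult signals of 3921.8, 3225.6 and 3452.8 (5.96 ± 0.45, adjusted p = 1.30e-07). Cby2, a coiled-coil protein of spermatids, rose from 76.8, 3 and 43.3 to 2324.4, 1669.4 and 1365.9 (5.25 ± 0.52, adjusted p = 2.38e-06). For 1700001C19Rik the 22-day signals were 35.3, 3.3 and 8.7 and the adult ones 971.2, 1240.9 and 1194.8 (5.33 ± 0.47, adjusted p = 5.24e-07). The gene's other probe set was not called, at 0.43 (adjusted p = 0.268).

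Some genes of the Leydig cell list also rose, and its members' changes ran from -1.21 to 4.32. Of 16 tested Leydig cell markers, 7 were called higher and 0 lower (1), with a median of 0.77: Ptgds, Agt, Sult1e1, Hsd17b3, Cyp17a1, Vcam1 and Gstm1. The summed signal of the list was 5404 to 7190 on the 22-day arrays and 10009 to 14317 on the adult arrays. Ptgds, the lipocalin-type prostaglandin D synthase, had signals of 71.3, 88.5 and 87.3 at 22 days and 1927.2, 2049.9 and 1830.5 in adults, and the 3 arrays of an age differed by little beside the change of 4.32 ± 0.29 (adjusted p = 2.96e-08). A separate probe set of the gene gave 3.89 ± 0.26. Ptgds also stands on the Sertoli cell list. Angiotensinogen (Agt) rose from 12.7, 17.5 and 5.5 to 329.9, 406.4 and 426.4 (3.90 ± 0.38, adjusted p = 1.69e-06), and Sult1e1, the oestrogen sulphotransferase of Leydig cells, from 1.8, 7 and 2.6 to 90.3, 178.5 and 190.6 (3.08 ± 0.36, adjusted p = 1.20e-05).

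Of the steroid synthesis genes, Hsd17b3, which makes testosterone from androstenedione, rose from 25.3, 24 and 25 to 88.2, 88.9 and 274.7 (1.87 ± 0.38, adjusted p = 0.00396), and adult replicate 3 was far above the other adult arrays. Cyp17a1, the 17-hydroxylase, rose from 830, 896.7 and 185.7 to 1742.3, 1396.8 and 2764.6 (1.83 ± 0.54, adjusted p = 0.0480). Cyp11a1, which cleaves the side chain of cholesterol, was at 381.4, 268.5 and 225.5 and 482.6, 286.5 and 1065.2, with overlapping groups (adjusted p = 0.297). Of the 4 tested defining markers of Leydig cells only Cyp17a1 was called, and Star and Hsd3b1 were not. The calls of Cyp17a1, Vcam1 and Gstm1 were lost without 1 or other array (highest adjusted p = 0.188, 0.0962 and 0.111), Cyp17a1 without 22-day replicate 3 or adult replicate 1 or 3, Vcam1 without any array but adult replicate 1, and Gstm1 without any but adult replicate 2. The list held 5 calls without adult replicate 1, and the same number without 22-day replicate 2.

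Lipocalin 2 (Lcn2), a secreted carrier of iron-binding siderophores, had 22-day signals of 31.8, 12 and 15 and adult signals of 1139.3, 1007.6 and 1492.8, with no overlap. Its change of 5.16 ± 0.29 had the lowest adjusted p among the named genes (6.49e-09). The 3 tissue kallikreins Klk1b21, Klk1b24 and Klk1b27 (secreted serine proteases) rose as well: Klk1b21 from 41.3, 75.5 and 32.1 to 397.7, 405.3 and 744.2 (3.02 ± 0.32), Klk1b24 from 55.5, 53 and 48.2 to 457.2, 344.9 and 805.1 (2.94 ± 0.26) and Klk1b27 from 7.6, 6.6 and 11.8 to 233.8, 186.4 and 367.5 (3.48 ± 0.34). Apoc1, an apolipoprotein, rose from 53.2, 30.6 and 57.2 to 677.4, 273.5 and 495.2 (2.93 ± 0.31). The adjusted p of these 4 genes was between 5.24e-07 and 4.40e-06, and in all 3 kallikreins adult replicate 3 was the highest array. The 3 kallikreins belong to 1 family clustered on chromosome 7, and whether their probe sets are separable was not tested. Their upstream bases are shown because they changed together (RefSeq, GRCm38.p6; capitals as above).
Klk1b21 (chr7:44102142-44102291, + strand): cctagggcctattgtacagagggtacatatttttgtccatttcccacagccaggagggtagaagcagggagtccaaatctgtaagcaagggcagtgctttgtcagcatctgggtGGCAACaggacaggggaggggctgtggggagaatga
Klk1b24 (chr7:44188086-44188235, + strand): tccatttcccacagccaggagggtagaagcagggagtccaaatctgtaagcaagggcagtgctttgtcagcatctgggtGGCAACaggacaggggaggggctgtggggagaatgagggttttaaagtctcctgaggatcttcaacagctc
Klk1b27 (chr7:44052140-44052289, + strand): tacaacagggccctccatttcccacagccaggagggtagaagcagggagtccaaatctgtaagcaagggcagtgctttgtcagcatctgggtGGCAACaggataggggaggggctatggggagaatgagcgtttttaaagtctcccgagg
Each window holds GTTGCC on the opposite strand, in a stretch that the 3 share. The windows were 62.2 to 80.5% identical in pairwise alignments, a share that also counts unpaired end columns where the windows are offset. The lowest share was that of Klk1b21 and Klk1b24, with 115 identical of 185 columns. The bases in which the windows of Klk1b21 and Klk1b24 overlap were the same, and that of Klk1b27 differed from them at some bases. Of the 27025 genes, 7.61% hold this motif in a window of this length.

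Over the longer window of 250 bases before to 50 bases after the start, a promoter was found for 7095 of the 8713 tested genes, 416 of the 504 called higher and 131 of the 161 called lower. GTTGCC stood in 24.5% of the promoters of genes called higher, 12.2% of those called lower and 14.9% of those tested. For CAACTG the shares were 16.1, 9.92 and 12.1%, and for TGACGTCA they were 4.33, 2.29 and 3.66%. TATAAA stood in 10.6, 6.11 and 8.89%, TGACG in 34.1, 32.1 and 35.8%, and CCAAT in 41.6, 42.7 and 43.0%. These shares are descriptions, and a match is not a binding site.

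Most of the increases on polysomes were shared by the RNP fraction. The 2 fractions share no array, but same-numbered arrays of an age deviated together, so the numbers were also used as a block. In RNPs 858 probe sets were called higher (6.1%) and 1106 lower (7.86%). Of the 684 called higher on polysomes, 484 were also called higher in RNPs (70.8% of the polysome calls and 56.4% of the RNP calls), and 0 were called lower. Of the 330 called lower on polysomes, 137 were also called lower in RNPs (41.5% and 12.4% of each list) and 1 was called higher.

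A test of the difference between the changes (polysome change minus RNP change) called 16 probe sets (0.114%), of which the difference was positive for 11 (0.0782%) and negative for 5 (0.0355%). With each pair of fractions as a block it called 130 (0.924%), 103 positive (0.732%) and 27 negative (0.192%), and the 16 were among them. Of the 103, 72 were called higher on polysomes, and 24 were not called on polysomes and lower in RNPs. Of the 27, 23 were called higher in RNPs. Without the block, 781 of the 14066 passed an unadjusted p below 0.05, not far above the share of 0.05 expected with no difference. Ptgds was at 61.1, 46.6 and 66.6 in 22-day RNPs and 381.9, 200.2 and 144.5 in adult RNPs, a change of 1.71 ± 0.29 against 4.32 on polysomes, and the difference of 2.61 ± 0.41 passed (adjusted p = 0.0105). Agt was at 9.4, 6.5 and 6.6 and 32, 13.7 and 10.9 in RNPs, and its difference was 3.37 ± 0.53 (adjusted p = 0.0105). Apoc1 was at 52.7, 23.4 and 58.5 and 55, 67.5 and 46.2 in RNPs, with overlapping groups, and its difference was 2.64 ± 0.44 (adjusted p = 0.0170). The differences of Klk1b21, Klk1b24, Klk1b27 and Lcn2 were 2.50, 2.04, 2.78 and 2.32 (adjusted p = 0.0203 for each). Lcn2 rose in RNPs too, from 1.3, 7 and 1.5 to 200.1, 72.9 and 105.8, and the 22-day RNP signals of all 4 were at most 44. Each of the 4 lost this call under a pseudocount of 1 (adjusted p = 0.119, 0.0688, 0.702 and 0.987), as did Agt (0.207). The calls that held without each array in turn were those of Agt, Mta3, Cdkn1c and the second probe set of Ptgds (2.88 ± 0.37).

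A spermatid gene that differed was Dbil5, an acyl-CoA-binding protein of the testis. Its polysome signals rose from 288.6, 172 and 287.9 to 2979, 3363.9 and 2987 (3.59 ± 0.24) and its RNP signals from 1510.2, 993.7 and 1379.8 to 2660.3, 3926.5 and 3695.7 (1.40 ± 0.24), a difference of 2.20 ± 0.34 (adjusted p = 0.0105). Mta3, a subunit of a chromatin remodelling complex, did not pass on polysomes (150.6, 199.1 and 168.9 and 167.1, 145.3 and 195.8) but fell in RNPs from 136.5, 149 and 159.1 to 31.3, 23.9 and 20.9 (difference 1.98 ± 0.26, adjusted p = 0.00264). In the opposite direction stood Cdkn1c, Pkm and Nqo2. Cdkn1c, the cyclin-dependent kinase inhibitor p57, went from 34.4, 27.4 and 6.4 to 669.6, 657 and 325.4 in RNPs and from 73.5, 71.5 and 58.2 to 143.5, 89.1 and 77.1 on polysomes, where the change did not pass (difference -3.43 ± 0.51, adjusted p = 0.00755). Pyruvate kinase M (Pkm) rose in RNPs from 106.7, 82.2 and 108.4 to 662.8, 405.4 and 649.1 and not on polysomes (448.3, 458.4 and 319.7 and 430.2, 386.2 and 723.5; difference -2.05 ± 0.36). Nqo2, a quinone reductase, rose in both, by 0.99 ± 0.23 on polysomes and 2.85 ± 0.23 in RNPs (difference -1.86 ± 0.32). The polysome call of Nqo2 was lost without 22-day replicate 2 (adjusted p = 0.0556).

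Several of these differences rested on single arrays. Without RNP 22-day replicate 3 the differences of Ptgds, Dbil5, Pkm, Nqo2, Apoc1, Klk1b21, Klk1b24, Klk1b27 and Lcn2 all missed the threshold (adjusted p of 0.0539 for Dbil5 to 0.0863 for Klk1b24, and 0.057 for the first probe set of Ptgds). Without RNP adult replicate 3, Apoc1, Pkm, Nqo2, Lcn2 and the 3 kallikreins missed it (0.058 to 0.0655), and without RNP adult replicate 2, Klk1b21, Klk1b27, Lcn2 and Nqo2 did (0.0557 to 0.0765). Without RNP 22-day replicate 2, Klk1b24, Lcn2 and Pkm missed it (0.0529 to 0.0587), and without RNP 22-day replicate 1, Klk1b21 did (0.0795). On the polysome side, omission of 22-day replicate 1 ended the call of Pkm, Nqo2 and the 3 kallikreins (0.0631 to 0.0674), that of 22-day replicate 2 the call of Apoc1, Lcn2, Pkm, Nqo2, Klk1b24 and Klk1b27 (0.0587 to 0.0861), and that of 22-day replicate 3 the call of Nqo2, Lcn2, Klk1b21 and Klk1b24 (0.0606 to 0.0902). Omission of adult replicate 3 ended the call of Lcn2, Klk1b21 and Klk1b27 (0.0854 to 0.0955), and that of adult replicate 2 the call of Pkm (0.0605).

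**Figure D3:**
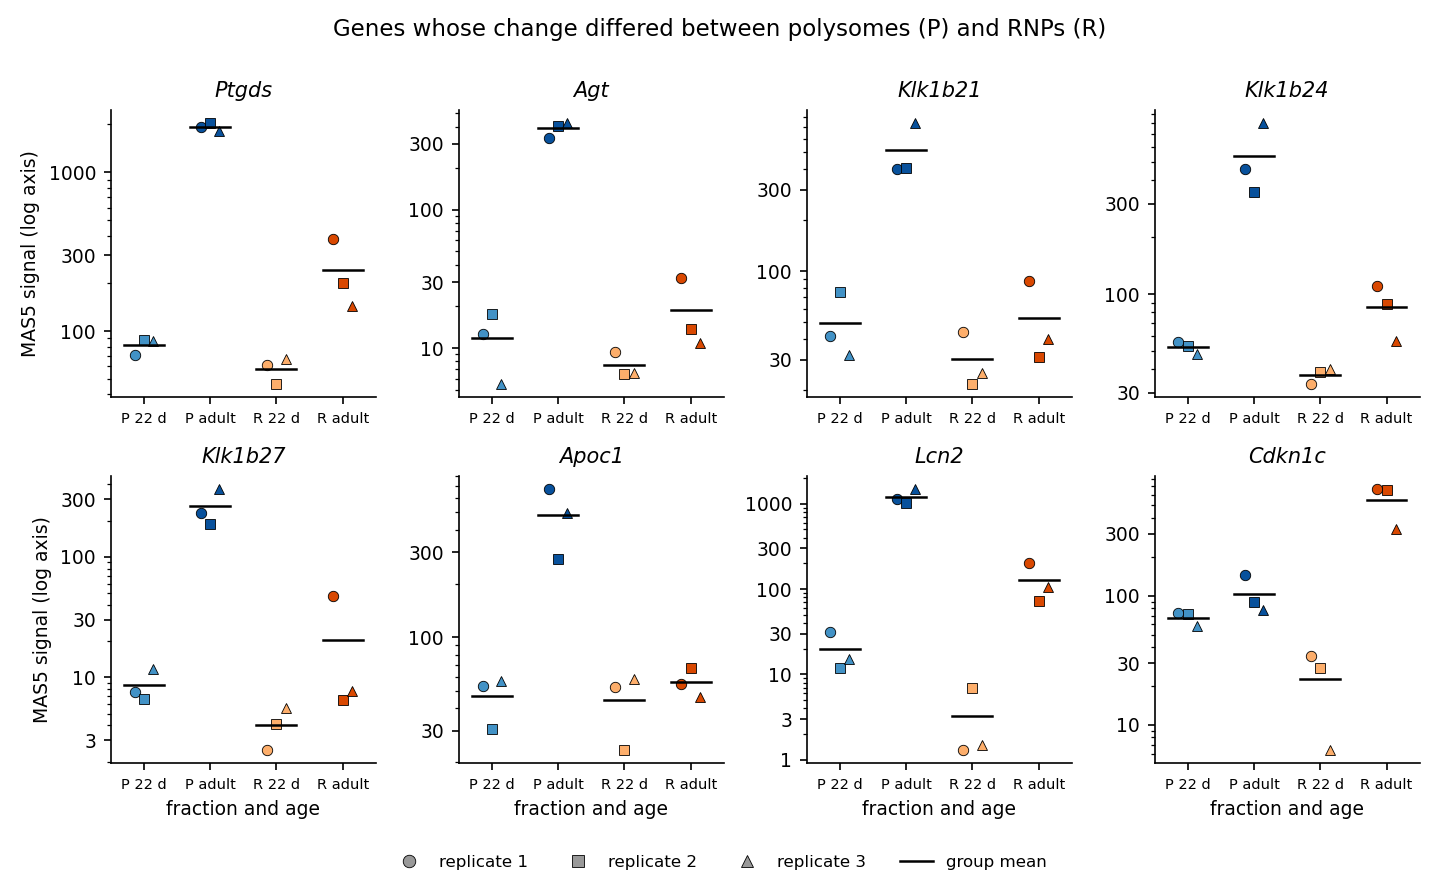
MAS5 signal (y axis, log scale) of 8 genes whose change from 22 days to adult differed between polysomes (P) and RNPs (R), with 1 marker per array, the marker shape giving the replicate, and a bar at the group mean. Ptgds, Agt, the 3 kallikreins, Apoc1 and Lcn2 had a polysome change above the RNP change, and Cdkn1c rose in RNPs.

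Several histone replacement and tail genes had a polysome change above the RNP change by the blocked test alone. For Prm2 the RNP signals were 2072.6, 90.5 and 915.9 at 22 days and 8577.3, 9393.9 and 10794.8 in adults, a change of 4.02 ± 0.79, so the polysome change exceeded it by 2.20 ± 1.11 (adjusted p = 0.907, and 0.0103 with the block). The same test gave 2.01 for Prm1 (adjusted p = 0.966, blocked 0.0228), 1.98 for Tnp1 (0.965, blocked 0.0197) and 1.21 for Tnp2 (0.998, blocked 0.315). The adult signals of Prm1 and Prm2 were among the highest of their arrays. The array maxima were 9682, 10120 and 7933 on adult polysomes and 11440, 12000 and 12560 in adult RNPs. The part of a limit on high signals in these differences was not tested. Odf1 exceeded its RNP change by 2.66 ± 0.59 (0.131, blocked 6.46e-04) and Akap4 by 1.98 ± 0.52 (0.290, blocked 8.74e-04). Pgk2 was at 1275.9, 1170.4 and 1246.1 in 22-day RNPs and 1026.5, 2234 and 2174.9 in adult RNPs, where its change did not pass (0.47 ± 0.33, adjusted p = 0.354), and the difference was 2.08 ± 0.47 (0.142, blocked 0.00216). With the block, 5 of the 9 chromatin condensation genes, 7 of the 31 tail genes and 6 of the 39 kinases and regulators had a positive difference, against 0.732% of all tested probe sets. Tnp1 is counted both with chromatin condensation and with the kinases and regulators. Tssk6 did not pass either way: it rose by 5.34 ± 0.49 in RNPs and 4.79 on polysomes.

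**Figure D4:**
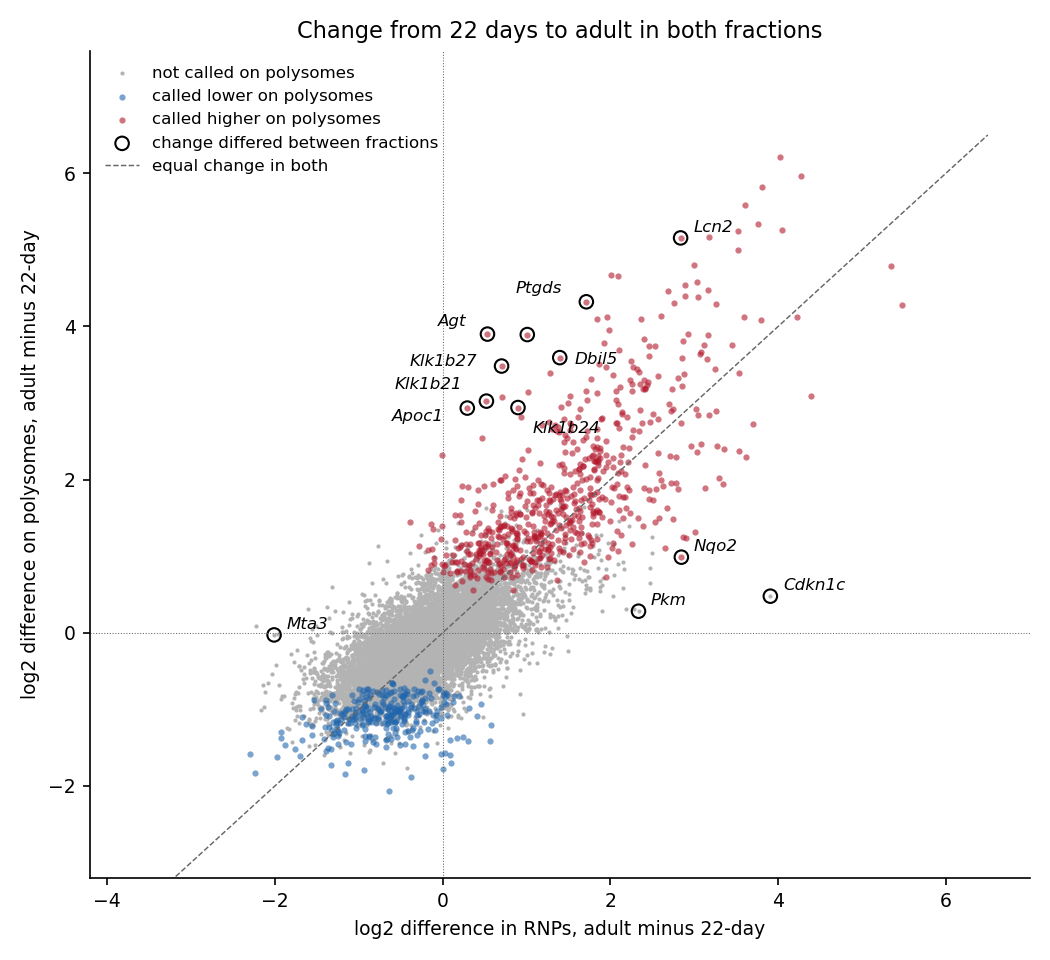
Log2 difference from 22 days to adult on polysomes (y axis) against that in RNPs (x axis) for each tested probe set with 1 gene symbol. Red points were called higher and blue points lower on polysomes, black circles mark probe sets whose change differed between the fractions without the block, and the dashed line marks equal change. Of the 684 probe sets called higher on polysomes, 484 were also called higher in RNPs.

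The decreases were smaller and rested more on single arrays. Of 47 tested genes of the cell cycle and DNA replication, 5 fell and 0 rose (0), with a median of -0.46. Mki67, the nuclear protein of dividing cells, went from 90.5, 112.7 and 71.8 to 13.3, 33.6 and 31.7 and fell by 1.39 ± 0.25 (adjusted p = 0.00142). The replicative helicase subunit gene Mcm3 went from 375.9, 403.9 and 237.1 to 130.5, 112.3 and 179.4 and fell by 1.17 ± 0.25 (adjusted p = 0.00499). Both calls held without each array in turn, but Mcm3 missed the threshold with only the compared arrays in the fit (adjusted p = 0.057). Of the 3 other Mcm3 probe sets 1 was called, at -1.07, and the others were at -0.40 and -0.59. Mcm6 fell by 1.33, Mcm4 by 1.08 and the ribonucleotide reductase gene Rrm2 by 0.96. All 3 of these calls were lost without 22-day replicate 1 or 2, those of Mcm6 and Rrm2 also without adult replicate 1 and that of Rrm2 without adult replicate 3 (highest adjusted p = 0.179, 0.0689 and 0.108). The list held 3 lower calls without adult replicate 1.

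Premeiotic and meiotic genes mostly did not pass. Of 25 spermatogonial genes 1 fell and 0 rose (1): Stra8, which germ cells switch on before meiosis, went from 304.4, 387.9 and 304.8 to 169.4, 162.2 and 218.2 (log2 difference -0.81 ± 0.23, adjusted p = 0.0395). That call was lost without any array but adult replicate 3 (highest adjusted p = 0.191). Of 30 genes of meiosis and the synaptonemal complex, 2 rose and 1 fell, with a median of -0.41. The meiotic cohesin gene Rec8 rose from 127, 93.4 and 150.5 to 849.4, 355.5 and 355 (1.84 ± 0.30, adjusted p = 4.89e-04), and adult replicate 1 was far above the other adult arrays. Syce2 rose by 0.73 and Mov10l1, a helicase of the piRNA pathway, fell (adjusted p = 0.0315). Both calls were lost without 22-day replicate 2, adult replicate 1 or adult replicate 2, and that of Syce2 also without 22-day replicate 1 (highest adjusted p = 0.164 and 0.204). Without adult replicate 1 the list held 1 higher call and 0 lower ones. Sycp3, a core protein of the synaptonemal complex, was at 827.6, 823.5 and 760.2 and 435.8, 809.1 and 555.5 (adjusted p = 0.288).

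Of 42 tested ribosomal protein genes, 4 fell and 0 rose (0), with a median of -0.23. They were Rps4x (fell by 1.23), Rps3a1 (fell by 0.99), Rpl27 (fell by 0.98) and Rps10 (fell by 0.67). Rpl27 had signals of 2637.3, 3117.4 and 2119.8 at 22 days and 1409.5, 852.8 and 1844.3 in adults (adjusted p = 0.00860). All 4 calls were lost without 22-day replicate 2, and the list then held 0 (highest adjusted p for Rps4x, Rps3a1, Rpl27 and Rps10 = 0.115, 0.223, 0.0689 and 0.148). Those of Rps4x, Rps3a1 and Rps10 were also lost without 22-day replicate 1, those of Rps4x and Rps3a1 without adult replicate 1 and that of Rps10 without adult replicate 2. Under quantile normalization the list held 9. The other 2 probe sets of Rpl27 were not called, at -0.32 and -0.36. Of 67 genes of the respiratory chain 2 fell and 0 rose (3): Uqcrc2 by 1.15 and Atp5k by 1.06 (adjusted p = 0.0189 and 0.00866). Both were lost without 22-day replicate 2, and Uqcrc2 also without 22-day replicate 1 or adult replicate 1 (highest adjusted p = 0.133 and 0.0583). Quantile normalization gave 6 lower calls for that list. The other probe sets of these 2 genes were not called, at -0.31 for Uqcrc2 and at -0.12 and -0.54 for Atp5k.

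Some matrix and contractile genes fell. Of 20 tested peritubular and smooth muscle markers, 3 fell and 1 rose, with a median of -0.42, and the summed signal of the list was 3485 to 6315 at 22 days and 3032 to 5318 in adults. Col4a1, a collagen of the basement membrane, went from 127.3, 175.3 and 80.5 to 23.3, 17.2 and 25.5 and fell by 1.89 ± 0.35 (adjusted p = 0.00140), and a separate probe set fell by 1.72 ± 0.32. The 3 adult arrays of the first probe set were close together and far below the lowest 22-day array. Col3a1 fell by 1.45 and tropomyosin 1 (Tpm1) by 1.61, and both calls were lost without 22-day replicate 1 or 2 or adult replicate 2, that of Col3a1 also without adult replicate 1 (highest adjusted p = 0.130 and 0.105). The member that rose was Actg2, the enteric smooth muscle actin, from 136, 69.2 and 62.4 to 593, 487.2 and 573 (2.50 ± 0.34, adjusted p = 6.86e-05), and it rose in RNPs by 1.95 ± 0.34 too.

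Of the 12 largest decreases named by size, the other 10 belonged to genes of no shared list. Cnn3, an actin-binding calponin, went from 330.2, 246.3 and 89.1 to 17.6, 28.5 and 73.1 and fell by 2.07 ± 0.51, the only called decrease of at least 4-fold. Tnni3, the cardiac troponin I gene, went from 328.7, 463.6 and 464.4 to 151.9, 72 and 144 and fell by 1.69 ± 0.29 (adjusted p = 7.17e-04). In RNPs Tnni3 was at 55.6, 84.9 and 44.3 and 51.8, 49 and 104.6, with overlapping groups, and the polysome change minus the RNP change was -1.79 ± 0.41 (blocked adjusted p = 0.0151, unblocked 0.151). Ptov1 went from 79.6, 131 and 145.5 to 30, 23.9 and 15.3 (-1.78 ± 0.35), the endocytic scaffold gene Itsn1 from 109.1, 153.1 and 142.8 to 9.9, 18.8 and 66.4 (-1.85 ± 0.40) and the LIM-domain cofactor gene Ldb1 from 59.1, 71.6 and 50.6 to 3.3, 4.8 and 26.4 (-1.59 ± 0.30). A T cell receptor variable segment, Trav9d-3, changed by -1.70 ± 0.27. Those 5 calls held without each array in turn, but Itsn1 missed the threshold when adult replicate 1 and 17-day replicate 2 were left out in both fractions (adjusted p = 0.0602). Other probe sets of 3 of them were not called: that of Ptov1 was at 0.10 with a higher mean signal (697 at 22 days and 751 in adults), that of Itsn1 at -0.81, and those of Trav9d-3 at -0.41 and -1.06. Oga, which removes O-GlcNAc from proteins, changed by -1.83, the golgin gene Golga4 by -1.62, Nfic by -1.61 and the microtubule kinase gene Mark4 by -1.59. No other probe set of these 4 genes was called: those of Oga were at 0.38, -0.47 and -1.18, those of Golga4 at -0.68 and -1.21, that of Nfic at -0.65 and those of Mark4 at 0.0035 and -0.35. Of the 5 others of Cnn3, 4 were called lower. With Cnn3 these 4 lost the call without 1 or more arrays (highest adjusted p = 0.0936, 0.0770, 0.139, 0.137 and 0.0623). The arrays were 22-day replicate 2 for all but Mark4, 22-day replicate 1 for Cnn3, Golga4 and Nfic, adult replicate 1 for all but Nfic, adult replicate 2 for Nfic and Mark4, and 22-day replicate 3 for Mark4.

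**Figure D5:**
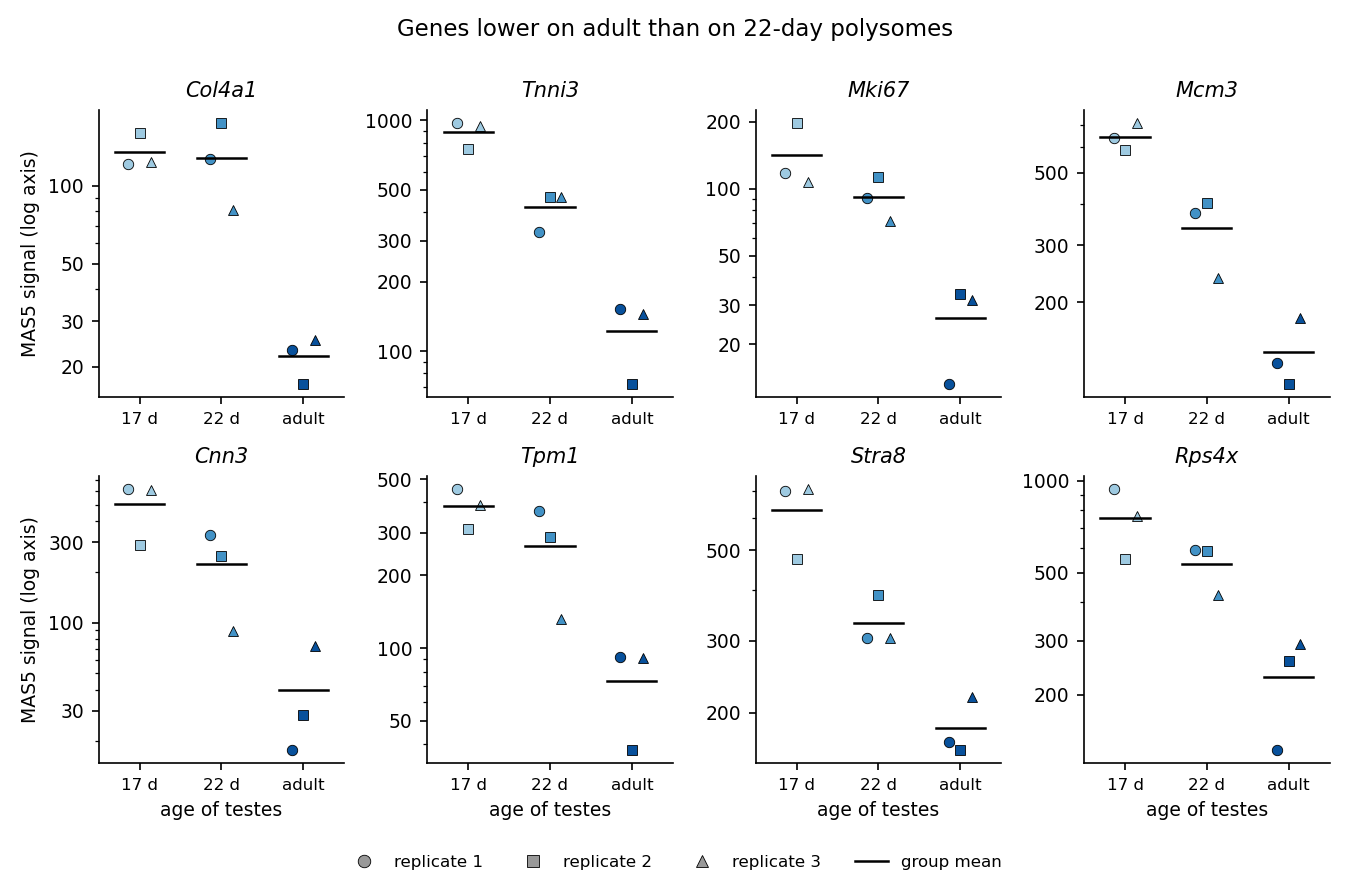
MAS5 signal (y axis, log scale) of 8 genes called lower on adult than on 22-day polysomes, on the polysome arrays of 17-day, 22-day and adult testes (x axis), with 1 marker per array, the marker shape giving the replicate, and a bar at the group mean. For each gene all 3 adult arrays lie below all 3 22-day arrays, by a narrow margin for Cnn3 (73.1 against 89.1).

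Few markers of other cell types were called. Of 37 tested Sertoli cell markers 2 rose and 0 fell (8), with a median of -0.32: Ptgds and Fabp3, a fatty acid-binding protein, from 407.1, 236.9 and 442.7 to 1402.5, 1430.1 and 1979.6 (2.13 ± 0.25, adjusted p = 1.41e-05). The summed signal of the Sertoli list was 11237 to 22826 at 22 days and 14359 to 18982 in adults, and clusterin (Clu) was at 1698.9, 2749 and 672.6 and 2927.7, 2865.8 and 1234.2, with overlapping groups. Of 20 tested markers of blood, vessels and macrophages, limma called 0 either way (2 higher and 0 lower at an unadjusted p below 0.05), with a summed signal of 1034 to 1597 at 22 days and 1162 to 1692 in adults. Of the defining markers of the cell types, Gfra1, Myh11, Cnn1, Hba-a1, Pecam1 and Cd68 did not pass the filter, Sohlh1, Insl3 and Lhcgr had no probe set of a single gene, and none was at 0. The part of cell type shares in the gene changes was not tested. Among 48 secretory route genes (endoplasmic reticulum), limma called 0 (2 higher and 5 lower at an unadjusted p below 0.05). Of 19 genes of cholesterol synthesis, Cyp51 (1.17 ± 0.31) and Fdft1 (1.15 ± 0.32) rose. Cyp51 lost the call without 22-day replicate 3 or adult replicate 2 or 3, and Fdft1 without any array but adult replicate 3 (highest adjusted p = 0.118 and 0.177). The other 2 probe sets of Fdft1 were not called. Of 21 immediate early genes 1 rose, the nuclear receptor gene Nr4a1 (1.22 ± 0.24, adjusted p = 0.00255). Without adult replicate 1 the list held 1 higher and 2 lower calls.

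The polysome change from 17 to 22 days, which shares the 22-day arrays and so is given only side by side, called 338 probe sets higher (2.4%) and 46 lower (0.327%). Smcp had changed by 3.81 ± 0.33 before 22 days and by 3.31 after, Odf1 by 2.93 ± 0.42 and then 4.67, and Hils1 by 3.44 ± 0.47 and then 4.10. For Prm2 the earlier change was 1.84 ± 0.79 (adjusted p = 0.272) and for Gapdhs 1.25 ± 0.36 (adjusted p = 0.0729), neither of which passed. Acr had changed by 1.37 ± 0.27 (adjusted p = 0.00663) before 22 days and by 0.12 after. The kallikreins, Agt, Ptgds and Lcn2 did not pass before 22 days, with adjusted p between 0.254 for Klk1b21 and 0.827 for the second probe set of Ptgds.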

How the data were processed

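The deposited values are MAS5 signal intensities per probe set of Affymetrix arrays (MAS5 per the submitters' processing notes, its settings remain unstated in the sources used). The deposited intensity values are on a linear scale with a trimmed mean of 150 to 150.1 on every array, and carry no detection calls. Here 15.4 (the 25th percentile of all values) was added before taking log2. Probe sets above 51.6 (the 50th percentile) on at least 3 of the 18 arrays were tested with limma 3.58.1 in R 4.3.3, by lmFit and eBayes with a variance trend. All 18 arrays entered as 6 groups of 3, which left 12 residual degrees of freedom, and p-values were two-sided and adjusted by Benjamini-Hochberg over all 14066 probe sets. The number of arrays limits the precision, and the p-values measure only the spread between these samples. The fit was tested on simulated data.

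Of all 22690 probe sets, 64 controls included, 20393 had 1 gene symbol, 691 several and 1606 none in the platform annotation. A gene is named only from the first kind. In lists a gene is its tested probe set with the highest mean over all arrays (12972 probe sets of 8713 genes). A gene that stands on several lists counts in each. Near-identical copies and probe sets that match several transcripts (suffixes _s_at and _x_at) may not be separable. Named are the 12 largest non-overlapping calls in each direction, the 3 largest of each list in each direction, up to 6 in each direction whose change differed between fractions, and a panel of 26 genes. Other list members, and Cdkn1c, Pkm and Mta3, are named after their values were seen. Members, lists and panel were chosen with earlier results of these data known.

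Deviations from the group mean of same-numbered arrays correlated at -0.251, 0.0241 and 0.0761 between 22-day and adult polysomes, so numbers do not pair ages. Between polysomes and RNPs of an age they correlated at 0.198 to 0.345 (22 days) and 0.462 to 0.586 (adult), so fractions were paired in the blocked test. Alternatives were quantile normalization, median centring, 2 other pseudocounts, 2 other filters, no variance trend, only the compared arrays, the replicate block, each array left out, and 4 arrays left out together. Promoter bases came from a RefSeq table (GRCm38.p6) matched by gene symbol. No protein sequences are shown.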

Additional observations from a re-analysis of the deposited data

Results flagged for a closer look

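For 13 probe sets of 12 genes, the change from 22 days to adult on polysomes differed from the change in RNPs by limma's test of that difference (unblocked, adjusted p below 0.05). The values are the polysome change minus the RNP change on the log2 scale. The polysome change exceeded the RNP change for Agt by 3.37, for Ptgds by 2.88 and 2.61 at its 2 probe sets, for Klk1b27 by 2.78, for Apoc1 by 2.64, for Klk1b21 by 2.50, for Lcn2 by 2.32, for Dbil5 by 2.20 and for Klk1b24 by 2.04. For Mta3 the difference was 1.98, with a fall in RNPs and no call on polysomes. The polysome change lay below the RNP change for Cdkn1c (-3.43), Pkm (-2.05) and Nqo2 (-1.86). All 13 also passed with the fractions paired as a block, but 10 of the 13 missed the threshold under at least 1 other setting. The cause of the differences was not tested.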

How the results depend on the processing

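Adult and 22-day polysomes were compared under 16 other settings. The count of higher probe sets (684) was 460 to 664 with each array left out and 502 to 790 otherwise, and the count of lower ones (330) was 57 to 480 with each array left out. The lower count was 212 with a pseudocount of 1 and 84 with only the compared arrays in the fit. The replicate block gave 740 higher and 433 lower. For the difference between fractions, the 11 higher became 4 to 18 with each array left out, 24 under quantile normalization, 18 with no filter, 7 with the 75th percentile filter, 18 without the 4 arrays, 6 with only the compared arrays and 103 with the replicate block that pairs the fractions. The 5 lower became 1 to 8 with each array left out, 8 with the 50th percentile as pseudocount, 1 with only the compared arrays and 27 with that block. Of 122 named probe sets called on polysomes, 78 kept direction and call under every setting, and of 13 called in the difference, 3 did. Signs turned for 7 genes, all not called: Ldhc (-0.071) and Actb (-0.17) under quantile normalization, and 5 with single arrays left out, where Cyct ran from -0.44 to 0.035, Cycs from -0.40 to 0.0079, Acr from -0.0051 to 0.21, Hspa2 from -0.30 to 0.13 and Ddx4 from -0.50 to 0.18. Without the 4 arrays (adult replicate 1 and 17-day replicate 2, both fractions) Cyct was at 0.035, Hspa2 at 0.017 and Ddx4 at 0.18. The cause of these changes was not tested. The array number limits the precision of all values.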
